A study of Sus scrofa with 12 samples.

Results

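A set of 1332 open chromatin regions lay between genes and differed at least 2-fold in read count between the muscle of Duroc and Luchuan pigs. Open regions were mapped by ATAC-seq, in which a transposase cuts accessible DNA so that sequenced fragments pile up where chromatin is open. Samples were the longissimus dorsi, the long muscle of the back, of 3 Duroc and 3 Luchuan boars aged 180 days, all fed freely, kept under the same conditions and fasted overnight before sampling. Duroc is a lean, fast-growing Western breed and Luchuan is a native Chinese breed. The labels give no treatment and separate the groups by breed, and breed and library cannot be told apart. The deposited table gave 1 read count per breed for each peak and none for the individual boars. The spread between animals is therefore unknown and no difference between the breeds was tested.

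Part of the regulatory DNA of mammals lies between genes. Open stretches between genes include enhancers, which bind transcription factors and raise the transcription of a gene that can lie far away, as well as boundary elements that separate one regulatory domain from the next. The gene nearest to such a region is a common label for it, although an enhancer may act on a gene farther off. In a tissue sample, a region open in more of the cells and a region more open in each cell give the same count and cannot be told apart.

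Of 217213 listed peaks, 211677 lay on chromosomes 1 to 18, and overlapping ones were merged into 136586 regions, each represented by its longest peak. Luchuan counts were multiplied by 1.51, the ratio of the summed reads of both breeds, and the ratio of a region is the log2 of scaled Luchuan reads over Duroc reads with 1 added to each count, so that a negative ratio means more reads in Duroc. A region was kept when its raw reads summed to 100 or more, its lower count was above 5, its ratio was 1 or more in either direction, and its midpoint lay 2 to 250 kb from the nearest body of a protein-coding gene of Sscrofa11.1. That assembly is of a Duroc pig, and its part in the counts was not tested. Of 36656 regions between genes, 16420 had enough reads, of which 979 were higher in Duroc, 5.96% of those that could be called, and 353 were higher in Luchuan, 2.15%. These shares and ratios chose the regions and are given as a description. Another 2 regions passed every limit but the lower count. That near UBE2Q2 had 2 Luchuan and 120 Duroc reads.

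Regions of the whole table held 20275757 Duroc and 13460021 Luchuan reads, with medians of 61 and 38 reads per region. Reads at both gene ends were checked against the labelled tissue. All 14 skeletal muscle genes, among them CKM, ACTA1 and the fast myosin genes, had 647 to 2456 Luchuan reads and 1237 to 4989 Duroc reads. Genes of kidney (UMOD and SLC34A1) and intestine (VIL1, CDX2 and LGALS4), the Schwann cell gene SOX10 and the liver genes ALB and TTR were at 0 in both breeds. The other liver genes were open at their ends, APOA1 with 296 Luchuan and 458 Duroc reads (-0.04) and SERPINA1 with 285 and 228 (0.91). All 4 brain genes had reads, from 30 to 342 in Luchuan, the most at SLC17A7 with 342 and 673 (-0.38). Of the 14 muscle genes, 13 had a ratio below 0, and that of their summed reads was -0.25.

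**Figure D1:**
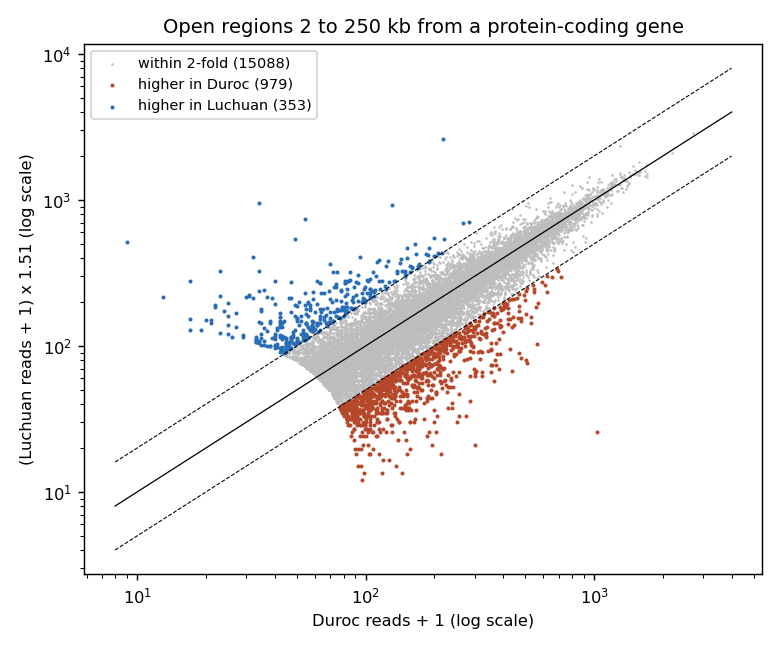
Read counts of 16420 open regions between genes, with Duroc reads plus 1 on the horizontal log axis and Luchuan reads plus 1, multiplied by 1.51, on the vertical log axis. The solid line marks equal scaled counts and the dashed lines a 2-fold difference. The 979 regions higher in Duroc lie below the lower dashed line, the 353 higher in Luchuan above the upper, and 15088 lie between.

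The plot of reads by breed shows how the regions spread. Regions higher in Duroc had a median of 145 Duroc and 35 Luchuan reads, and regions higher in Luchuan a median of 111 Luchuan and 56 Duroc reads. Over all 16420 regions between genes the medians were 146 Duroc and 90 Luchuan reads. Most differences were modest. Between 2- and 3-fold lay 726 of the Duroc-higher and 229 of the Luchuan-higher regions, and 8-fold or more was reached by 10 and 14. Median lengths of 425 and 438 bases were close to the 431 bases of all regions between genes. The median distance to the nearest gene was 31.0 kb for the Duroc-higher and 31.8 kb for the Luchuan-higher regions, against 24.4 kb over all.

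Just past the 2-fold limit stood a region near C7H15orf59 with 72 Luchuan and 219 Duroc reads and a region near CAMK1G with 69 and 210. Just short of it were regions near CELF2, with 33 and 101 reads, and LOC110259393, with 37 and 113. On the Luchuan side, regions near DCN, with 250 Luchuan and 188 Duroc reads, and SLC8A1, with 144 and 108, were just inside. Regions near ATP1B1, with 76 and 57 reads, and ZDHHC14, with 141 and 106, were just outside. Counts on both sides of the limit were nearly alike.

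The authors' table marks each peak as specific to a breed or common to both. Of the Duroc-higher regions, 681 (69.6%) were marked Duroc-specific and 297 common. Of the Luchuan-higher regions, 180 (51.0%) were marked Luchuan-specific and 172 common. Over all regions between genes, 14.2% were Duroc-specific, 3.27% Luchuan-specific and 82.5% common. A region in each direction carried the mark of the other breed. These lay near TPT1, which encodes a translationally controlled tumour protein (22 Luchuan and 92 Duroc reads, marked Luchuan-specific), and near PFKFB3, which encodes an enzyme that makes the glycolytic activator fructose 2,6-bisphosphate (61 and 42 reads, marked Duroc-specific).

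Whether such regions were as frequent elsewhere was asked next, with the same limits on reads and fold. Inside gene bodies, 3.61% of 44677 regions were past 2-fold towards Duroc and 1.36% towards Luchuan. Within 2 kb outside a gene body, Duroc was higher at 1.83% of 5751 regions and Luchuan at 0.348%. Farther than 250 kb from any gene, the shares were 10.6% and 3.56% of 1434 regions. Over all places together the shares were 4.17% and 1.51%. Regions near gene ends had more reads, with a median of 512 against 236 between genes, and regions with 400 or more reads passed 2-fold less often than those with fewer in every place. The order of gene ends, gene bodies and regions between genes held in all 3 bins of reads. At 400 or more reads, 2.16% of the regions between genes were higher in Duroc, with a 95% Clopper-Pearson interval of 1.77% to 2.62%, against 0.956% inside genes (0.812% to 1.12%) and 0.216% near gene ends (0.0867% to 0.444%). Such intervals cover counting error only: regions are not animals, and without molecular identifiers several reads may come from the same DNA molecule.

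**Figure D2:**
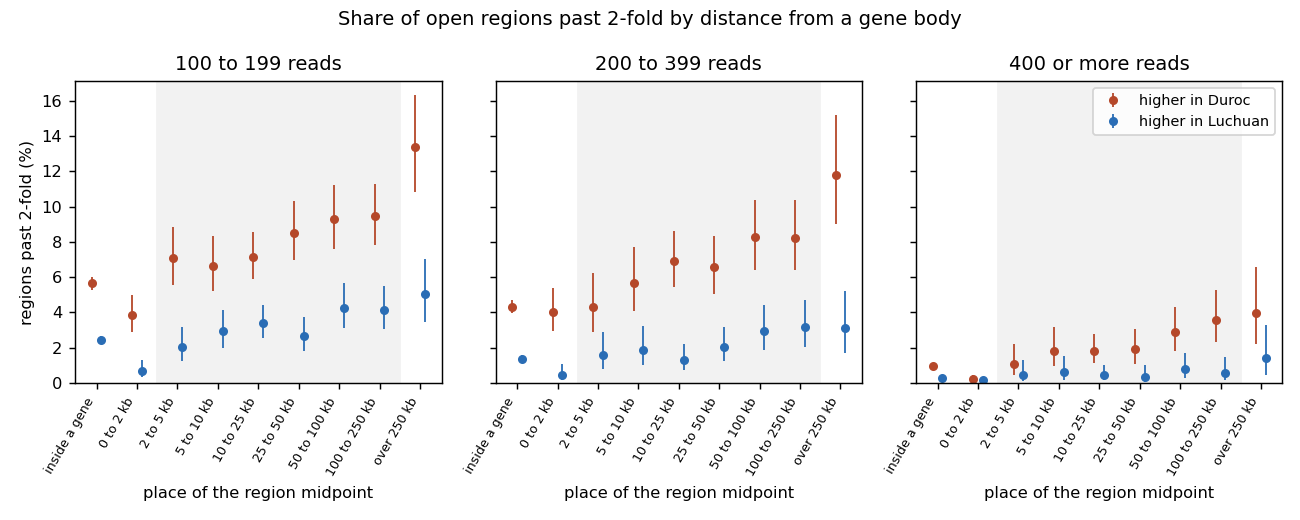
Share of open regions past 2-fold (vertical axis, %) by place of the midpoint (horizontal axis), in 3 panels by reads of both breeds, with 95% Clopper-Pearson intervals. Grey marks the bins between 2 and 250 kb. In the right panel the Duroc-higher share goes from 1.07% at 2 to 5 kb to 3.59% at 100 to 250 kb.

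Within the 2 to 250 kb range the Duroc-higher share grew with distance, from 4.57% at 2 to 5 kb (3.74% to 5.51%) to 7.52% at 100 to 250 kb (6.53% to 8.61%). The Luchuan-higher share was 1.46% at 2 to 5 kb (1.01% to 2.05%) and 2.91% at 100 to 250 kb (2.29% to 3.63%). In the plot of shares by distance, the red points stand above the blue ones in every bin. By chromosome, the Duroc-higher share ran from 3.83% on chromosome 12 to 8.18% on chromosome 16, and the Luchuan-higher share from 1.31% on chromosome 3 to 4.31% on chromosome 10. Of all breed-biased regions between genes, 73.5% were higher in Duroc (71.0% to 75.9%). The share was 72.6% inside genes (70.7% to 74.4%), 84.0% near gene ends (76.4% to 89.9%) and 74.9% far from genes (68.3% to 80.7%). Between genes it depended on the read limit, being 62.9% with 50 or more reads and 77.0% with 200 or more. The limit was set on raw reads, of which Duroc had more in all. At the same fold, a Luchuan-higher region therefore needed more scaled reads to pass, so the rule itself favoured Duroc. How far this shaped the split was not tested.

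The largest ratio towards Duroc belonged to a region at chr12:19713423-19714864, 33.2 kb from TMEM106A. It held 16 Luchuan and 1031 Duroc reads, a ratio of -5.33 (95% counting interval, -6.23 to -4.71), and had the most reads of any Duroc-higher region. The ends of TMEM106A itself had 229 and 338 reads, a ratio of 0.03. A region 35.1 kb from NANOS1, which encodes an RNA-binding repressor of translation, held 13 and 301 reads (-3.84). At FAM160B1 the counts were 11 and 213 (-3.57), and at CRADD, a death-domain adaptor gene, 8 and 143 (-3.41). Regions near IQCM (13 and 195 reads, -3.22) and SPP2 (9 and 135 reads, -3.17) completed the 6 largest. All 6 were marked Duroc-specific, and the gene ends of the 4 genes with reads there had ratios between -0.15 and 0.15.

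Regions with the most reads differed less. Near TSEN15, a subunit gene of the tRNA splicing endonuclease, 214 Luchuan and 695 Duroc reads were counted (-1.10). The counts were 195 and 713 near MITD1 (-1.27), 221 and 687 near NMNAT3, which encodes an NAD-synthesising enzyme (-1.04), and 197 and 655 near SEPT10, a septin gene (-1.14). These 4 regions were common to both breeds. Near LOC106507337, on chromosome 3, the counts were 200 and 619 (-1.03).

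In the Luchuan direction, a region at chr1:92603219-92604291 had the largest ratio. It lay 103 kb from MB21D1, the gene of the cytosolic DNA sensor cGAS, and held 340 Luchuan and 8 Duroc reads, a ratio of 5.83 (5.01 to 7.22). A pair of neighbouring regions on chromosome 9 lay near LOC100737110. That at chr9:4701599-4702210 had 633 and 33 reads (4.81, 4.35 to 5.40), and that at chr9:4699965-4701377 had 1729 and 216 (3.59, 3.39 to 3.80), the most reads of any Luchuan-higher region. A region 35.6 kb from RAB28, a small GTPase gene, held 183 and 16 reads (4.03), while the ends of RAB28 had 716 and 806 reads (0.42).

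On chromosome 5, 5 Luchuan-higher regions stood within 9.13 kb, at chr5:40181978-40191102. Their Luchuan reads were 358, 269, 142, 217 and 493, and their Duroc reads were 48, 31, 12, 22 and 53. All 5 ratios fell between 3.46 and 4.05. The 100 kb window around them held 8 regions with enough reads, with a median ratio of 3.57, and of 11 such regions nearest to the same gene, 8 leaned to Luchuan. The nearest gene, LOC110260582, lay 198.6 to 207 kb away, and the next gene on the other side, ALG10, lay 226 to 234 kb away.

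Also on chromosome 5, a region 9.74 kb from CD163L1, which encodes a scavenger receptor of the CD163 family, held 610 Luchuan and 129 Duroc reads (2.82, 2.56 to 3.12). A smaller one beside it had 95 and 20 (2.78). Here the gene ends moved with the regions, with 297 Luchuan and 38 Duroc reads (3.52, 3.07 to 4.08). CD163, the haemoglobin scavenger receptor of macrophages, had a Luchuan-higher region of its own 11.9 kb away, with 179 and 80 reads (1.74). Of the other immune genes checked at their ends, SPI1 had 447 Luchuan and 697 Duroc reads, a ratio of -0.05, and CD79A had 64 and 98 (-0.02). PTPRC had 13 and 17 (0.23), the T cell gene CD3E had 21 and 13 (1.24), and TYROBP was at 0. The part of immune cell content in these regions was not tested.

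**Figure D3:**
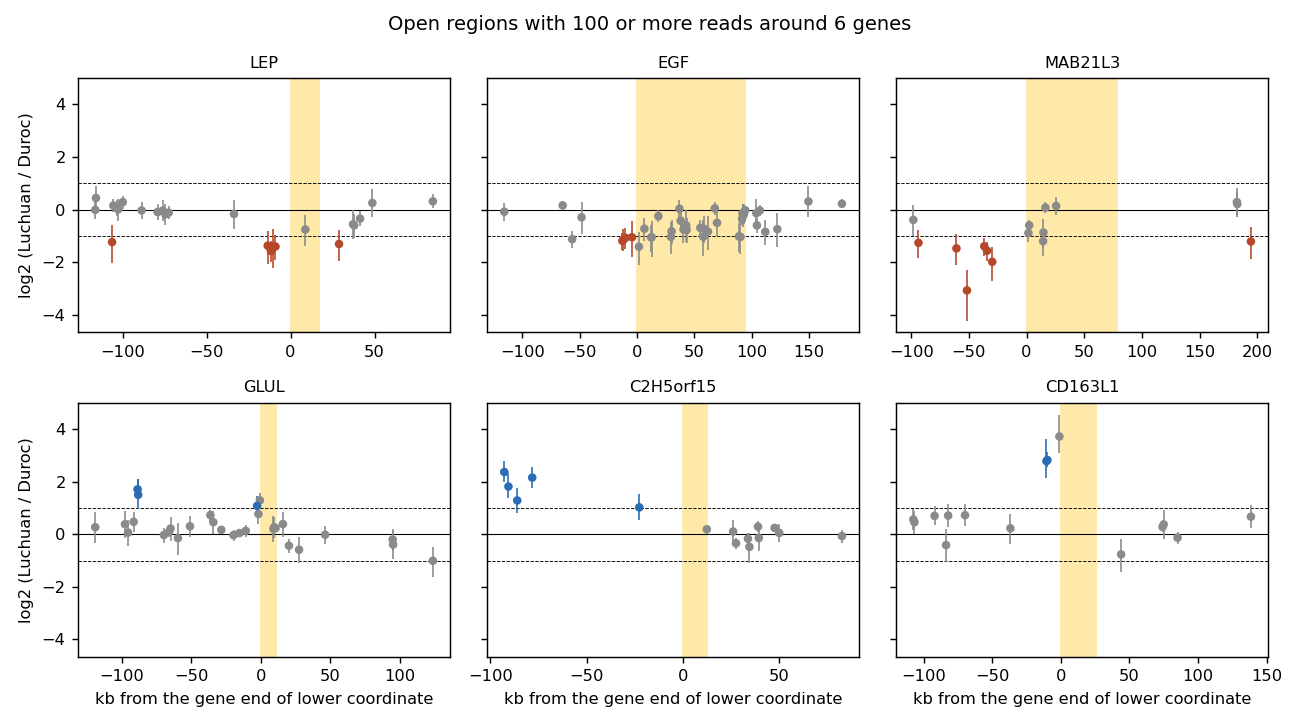
Scaled log2 ratio of Luchuan to Duroc reads (vertical axis) of open regions with 100 or more reads within 120 kb of 6 genes, by distance from the gene end of lower coordinate (horizontal axis, kb). Yellow marks the gene body, bars are 95% counting intervals, red points are breed-biased regions between genes that were higher in Duroc, blue points those higher in Luchuan, and grey points all other regions. Coloured points that are nearest to another gene are drawn too. At LEP, 4 of its 5 red points stand side by side left of the gene.

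Several genes had a group of regions in the same direction, as the plot of regions around 6 genes shows. Of the 988 genes nearest to a breed-biased region, 743 had 1 such region, 179 had 2 and 66 had 3 or more. LEP, which encodes leptin, the fat hormone that limits food intake, had 5 regions higher in Duroc, of 10 nearest to it with enough reads. Luchuan reads of the 5 were 29, 65, 21, 49 and 32, and Duroc reads were 116, 295, 86, 198 and 122. Ratios ran from -1.57 to -1.31, and 4 of the regions lay in a row, 8.99 to 13.6 kb from the gene on its side of lower coordinates at chr18:20093132-20098073. The remaining one lay 11.7 kb from the other end. No open region was listed at the ends of LEP, nor at those of the adipocyte genes ADIPOQ and CIDEC, while PLIN1, a lipid droplet gene of adipocytes, had 66 Luchuan and 79 Duroc reads at its ends (0.34). The part of fat cells in the samples was not tested.

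EGF, the gene of epidermal growth factor, was nearest to 5 regions with enough reads. The 4 that were Duroc-higher lay 4.33 to 12.7 kb away. Their Luchuan reads were 105, 64, 67 and 25, and their Duroc reads 363, 215, 214 and 80. Ratios were between -1.19 and -1.05, and at the ends of EGF, with 726 and 1219 reads, the ratio was -0.16 (-0.29 to -0.02). ROR1, which encodes a receptor of the Wnt family, was also nearest to 5 regions with enough reads. The 4 that were Duroc-higher lay at chr6:148838517-148840940. Here 48 Luchuan reads stood against 372 Duroc reads (-2.34), 108 against 500 (-1.61), 69 against 263 (-1.32) and 63 against 211 (-1.14). These regions lie between ROR1 and PGM1, the gene of the glycogen-pathway enzyme phosphoglucomutase, to which another Duroc-higher region of the same cluster was nearest.

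MAB21L3 had 5 Duroc-higher regions on its lower side, 29.7 to 60.7 kb away, with ratios from -3.07 to -1.39. The strongest held 11 Luchuan and 151 Duroc reads. The ends of MAB21L3 leaned the same way, with 269 Duroc and 96 Luchuan reads (-0.89, -1.25 to -0.55). FAM43A had 6 regions, 39.7 to 157 kb away (-1.19 to -1.01), and its gene ends had 827 and 1459 reads (-0.23). RCHY1, a ubiquitin ligase gene, had 6 at 38.9 to 122 kb (-1.97 to -1.02), but its gene ends, with 799 and 1074 reads, had a ratio of 0.16 (0.03 to 0.30). OTUD1, a deubiquitinase gene, had 5 at 3.15 to 36.9 kb (-1.68 to -1.02) and 1416 and 2555 reads at its ends (-0.26). At the very start of the chromosome 11 sequence, 5 regions nearest to LOC110255765 held 227 Luchuan and 1252 Duroc reads in all, with ratios from -2.27 to -1.36. Regions with enough reads nearest to the gene, whatever their ratio, numbered 5 at MAB21L3 and 5 at LOC110255765. At FAM43A there were 9, at RCHY1 13 and at OTUD1 14.

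Among genes with a group of Luchuan-higher regions, C2H5orf15 had 5, 22.6 to 92.7 kb away. Luchuan reads were 239, 130, 101, 212 and 84 and Duroc reads 69, 55, 62, 71 and 62, which gave ratios from 1.02 to 2.37. CTSV, a lysosomal cathepsin gene, had 4 regions on both sides (1.201 to 2.09), and RSL24D1, a ribosome assembly gene, had 4 at 129 to 171 kb (1.51 to 1.97). TMEM100 had 4 (1.07 to 2.12) and 147 Luchuan and 120 Duroc reads at its ends (0.88, 0.53 to 1.24). LOC106508840 had 4 regions within 2.88 kb of chromosome 1 (1.01 to 2.93). Gene ends of CTSV and RSL24D1 had ratios of 0.22 and 0.19. Regions with enough reads nearest to the gene, whatever their ratio, numbered 5 at C2H5orf15, 6 at CTSV and 4 at RSL24D1. At TMEM100 there were 7 and at LOC106508840 there were 9.

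Windows of 100 kb were used to look for groups whatever the nearest gene. Of these, 33 held 3 or more Duroc-higher regions and 11 held 3 or more Luchuan-higher regions. None of them held a region of the opposite direction. They were picked for 1 direction, however, and held only 3 to 34 regions with enough reads. Over all regions between genes, 5.96% were Duroc-higher and 2.15% Luchuan-higher, so few opposite regions could occur. With 5 regions each, the fullest Duroc windows were those at ROR1 and PGM1, at the start of chromosome 11, at MAB21L3, at RCHY1 and at LEP and IMPDH1. The last spread its 5 regions, nearest to LEP or IMPDH1, over 97.5 kb. Its 15 regions with enough reads had a median ratio of -0.12. In the other windows with 5 Duroc-higher regions that median ran from -1.78 to -0.80. The fullest Luchuan window, with 5, was that near LOC110260582.

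Neighbouring regions outside the selected set were examined. Those between genes with enough reads were outside it because they fell short of 2-fold. Of 1669 other regions with 20 or more reads within 10 kb of a Duroc-higher region, 1195 had a ratio below 0, a lean to Duroc of 71.6% (69.4% to 73.8%), where 48.1% of all regions leaned to Duroc. Of 629 regions within 10 kb of a Luchuan-higher region, 493 leaned to Luchuan, 78.4% (75% to 81.5%), where 51.9% of all regions did. The lean faded with distance. Within 2 kb it was 81.7% for Duroc and 87.8% for Luchuan, and at 50 to 100 kb it was 54.5% and 59.2%. The Luchuan series was uneven on the way, with 68.7% at 2 to 5 kb and 77.2% at 5 to 10 kb. Median ratios of the neighbours within 10 kb were -0.28 and 0.48. Since selected regions were left out, the size of these medians was limited by the rule.

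**Figure D4:**
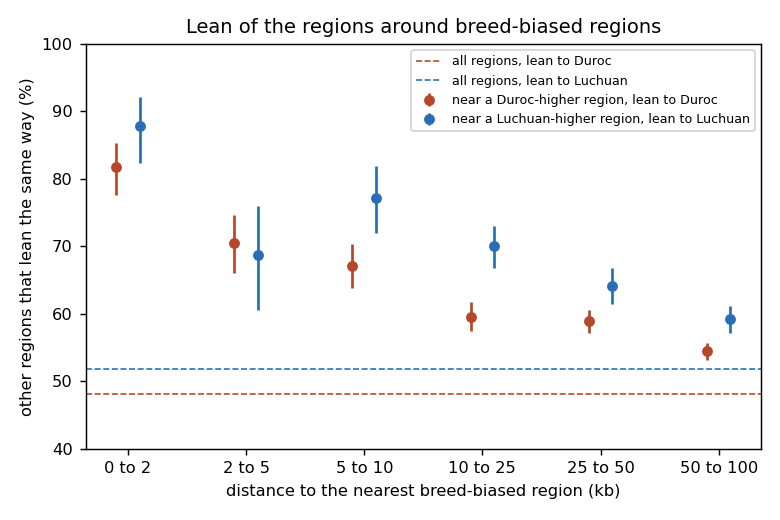
Share of other regions that lean to a breed (vertical axis, %, from 40 to 100) by distance to the nearest region higher in that breed (horizontal axis, kb). Bars are 95% Clopper-Pearson intervals. Each direction was taken by itself, so a region can enter both series. Dashed lines give the share over all regions, 48.1% for Duroc (red) and 51.9% for Luchuan (blue). Both series end lower than they start and stay above their lines at 50 to 100 kb, with 54.5% and 59.2%.

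Adjoining breed-biased regions also tended to share their direction at short range. Of 178 adjoining pairs at most 10 kb apart, 124 were both higher in Duroc, 49 both higher in Luchuan and 5 opposite (2.81%). At 100 to 500 kb, 58 of 209 pairs were opposite (27.8%). The 5 close opposite pairs were nearest to ST3GAL1, TMEM184B, LOC100627702, LOC102167213 and LOC106504234. At ST3GAL1, a sialyltransferase gene, a region with 153 Luchuan and 63 Duroc reads (1.86) stood 2.97 kb from a region with 73 and 383 (-1.78). At TMEM184B, 118 and 87 reads (1.03) stood 1.98 kb from 46 and 171 (-1.28).

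Reads at the ends of the nearest genes, within 2 kb of either end, were not used to choose the regions. Of 744 genes nearest to a Duroc-higher region, 627 had 20 or more such reads, and 241 of them leaned to Duroc, 38.4% (34.6% to 42.4%). Over all 13911 genes the share was 38.1%, and over the genes nearest to any region between genes it was 35.4%. The ends of genes near Duroc-higher regions thus leaned to Duroc about as often as those of any gene, and their median ratio was 0.06, against 0.07 over all genes. Of 276 genes nearest to a Luchuan-higher region, 227 had enough reads and 184 leaned to Luchuan, 81.1% (75.3% to 85.9%), where 61.9% of all genes did. Their median ratio was 0.18, well under 2-fold.

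For the Duroc direction, the share of gene ends that leaned to Duroc differed by the distance of the region. It was 46.9% (41.2% to 52.7%) for genes with a Duroc-higher region 2 to 25 kb away and 27.6% (20% to 36.4%) at 100 to 250 kb. In the Luchuan direction it was 85.7% and 81.2% at the same distances. Shares for all regions between genes at these distances were not taken, so the part of distance alone was not tested. Open regions inside the bodies of the nearest genes leaned to Duroc in 54.6% of 6865 cases (53.4% to 55.8%, 50.2% over all genes) and to Luchuan in 60.5% of 2357 (58.5% to 62.5%, 49.8% over all genes).

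Few nearest genes passed 2-fold at their own ends. In the Duroc group, 7 genes were past 2-fold towards Duroc and 7 towards Luchuan, and over all genes 0.848% were past 2-fold towards Duroc and 1.97% towards Luchuan. The strongest with the same direction was LOC110255734, with 49 Luchuan and 336 Duroc gene-end reads (-2.16) and 4 regions with ratios from -2.84 to -1.17. CRP, the gene of the acute-phase C-reactive protein, had 64 and 195 (-1.001), and PLA2G4E, a phospholipase gene, had 51 and 177 (-1.18). In the Luchuan group, 13 genes were past 2-fold in the same direction and 3 in the opposite one. Besides CD163L1, the same direction held at LRRC3B (417 and 232 reads, 1.43), KCND2, a potassium channel gene (127 and 80, 1.25), and PFKFB3 (881 and 590, 1.17). The 3 opposite genes were ICAM2, an adhesion molecule of endothelial cells (62 and 230, -1.28), TMEM98 (92 and 284, -1.02) and ABCA4 (53 and 211, -1.38).

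Nearest genes were then grouped by what they do, and each count can be read against the 5.96% and 2.15% of all regions between genes. Near factors of the muscle lineage, 6 of 175 regions were Duroc-higher past 2-fold (3.43%) and 0 were Luchuan-higher, both below those shares. The other 169 were within 2-fold, and the median ratio of all 175 was -0.02. MEF2C, a transcription factor that switches on muscle genes, had a region with 58 Luchuan and 191 Duroc reads 35.7 kb away (-1.11, -1.58 to -0.70), and its gene ends had 541 and 1141 reads (-0.48, -0.64 to -0.34). MSTN, the gene of myostatin, which limits muscle mass, had a region with 52 and 183 reads 24.4 kb away (-1.20), while its ends were near 0 (-0.08). Further regions lay near MEF2A, SIX2 and EYA1.

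Regions near genes of the sarcomere, the contractile unit of muscle, rarely passed 2-fold. Of 150, 3 were higher in Duroc (2%) and 1 in Luchuan (0.667%). The median ratio of all 150 was -0.162, a lean to Duroc well within 2-fold. It was the lowest median of the gene lists, against -0.052 over all regions between genes. The median ratio at the gene ends of this list was -0.156. MYL1, an alkali light chain of fast myosin, had a region 3.31 kb away with 69 Luchuan and 224 Duroc reads (-1.09) and a gene-end ratio of -0.28. LDB3, a Z-disc protein gene, had 24 and 129 (-1.79), and XIRP2, which encodes an actin-binding protein of muscle, had 41 and 131 (-1.06). MYOM3, a protein gene of the M-band, was the Luchuan-higher case, with 91 and 50 reads (1.44). Near genes of calcium handling and excitation, 2 of 66 regions were higher in Duroc. These lay near the genes of the junctophilins JPH2 (119 and 418 reads, -1.21) and JPH1 (38 and 132, -1.18), proteins that hold the membranes of the calcium release unit together.

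Lipid genes had 11 of 111 regions higher in Duroc (9.91%) and 2 in Luchuan (1.80%), and 5 of the 11 were those of LEP. Apart from LEP, the Duroc-higher regions lay near LPIN1, a phosphatidate phosphatase gene (32 Luchuan and 132 Duroc reads, -1.42), PLIN2, a lipid droplet coat gene (23 and 93, -1.38), KLF4, ELOVL5 and EBF1. Gene ends had ratios of -0.09 at LPIN1, 0.19 at PLIN2, 0.08 at KLF4, 0.21 at ELOVL5 and 0.56 at EBF1. G0S2 encodes an inhibitor of the main triglyceride lipase of fat cells. It had a Luchuan-higher region 2.08 kb away with 184 and 60 reads (2.19, 1.78 to 2.65), and its own ends leaned the same way with 687 and 538 (0.94, 0.78 to 1.11). LPIN2, a relative of LPIN1, had 89 and 42 reads (1.66), with a gene-end ratio of -0.04.

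Genes of insulin signalling, growth factors and glucose use had 8 of 98 regions higher in Duroc (8.16%), 4 of them at EGF, and 2 in Luchuan (2.04%). HK2, the gene of muscle hexokinase, had a region 3.09 kb away with 29 Luchuan and 126 Duroc reads (-1.49). PIK3R1, the regulatory subunit gene of phosphoinositide 3-kinase, had 1 region in each direction. That at 162 kb held 71 and 285 reads (-1.40), and that at 53.0 kb held 79 and 34 (1.78). PFKFB3 had nearly the same ratio at its Luchuan-higher region (1.12) and at its ends (1.17).

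Among genes induced by glucocorticoids, listed together with the gene of their receptor, 4 of 122 regions were higher in each direction. GLUL, the gene of glutamine synthetase, was nearest to 29 regions with enough reads, of which 3 were higher in Luchuan. Luchuan reads of these 3 were 201, 78 and 145 and Duroc reads 92, 41 and 103. Their ratios were 1.71, 1.503 and 1.08, and the ends of GLUL had 1291 and 1431 reads (0.44, 0.33 to 0.55). KLF15, a glucocorticoid-induced transcription factor of muscle, had 67 and 48 reads 28.4 kb away (1.06). In the Duroc direction were NR3C1, the gene of the glucocorticoid receptor (73 and 268, -1.27), and SGK1, a kinase gene (39 and 176, -1.55, 228 kb away). CEBPB and LPIN1 had the other 2. Of 67 regions near genes of muscle atrophy and protein breakdown, 1 was higher in Duroc, near the cathepsin gene CTSL (49 and 179, -1.26), and 1 in Luchuan, near FOXO1, a transcription factor of the fasting response (132 and 95, 1.06).

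Transcription factors of development had 20 of 262 regions higher in Duroc (7.63%) and 4 higher in Luchuan (1.53%). IRX3, IRX5 and IRX6 are homeobox genes of 1 cluster. IRX3 was nearest to 4 regions with enough reads, of which 3 were Duroc-higher. These 3 had 33, 41 and 36 Luchuan and 166, 129 and 176 Duroc reads (-1.71, -1.04 and -1.67), all between IRX3 and FTO. The ends of IRX3 had 657 and 1318 reads (-0.41, -0.55 to -0.28). IRX5 had 59 and 187 (-1.06) and IRX6 had 47 and 145 (-1.01). The strongest of the group was a region 15.4 kb from TSHZ1, a zinc finger factor gene, with 19 and 198 reads (-2.72). SOX5 had 92 and 386 (-1.47), although its ends, at 83 and 92 reads, had a ratio of 0.44. KLF6 and NFIA had regions in both directions, and SOX2 had 1 in the Luchuan direction (68 and 45, 1.18).

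Signalling and clock genes gave small counts. Of 125 regions near Wnt and Hippo genes, 7 were higher in Duroc, 4 of them at ROR1 and the others at LEF1 (45 Luchuan and 207 Duroc reads, -1.59), RYK and WNT4, and 2 were higher in Luchuan, at DKK3 and LRP6. LEF1 is a transcription factor of the Wnt pathway, and its ends leaned the other way, with 295 and 283 reads (0.65, 0.41 to 0.89). Genes of TGF-beta and BMP signals had 4 of 64, at MSTN, BMP2 (50 and 166, -1.12) and SMAD7, all in Duroc. Clock genes had 4 of 47 in Duroc, at ARNTL (90 and 302, -1.14), NR1D2 and RORA, and 1 in Luchuan, at BHLHE41 (78 and 53, 1.14).

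**Figure D5:**
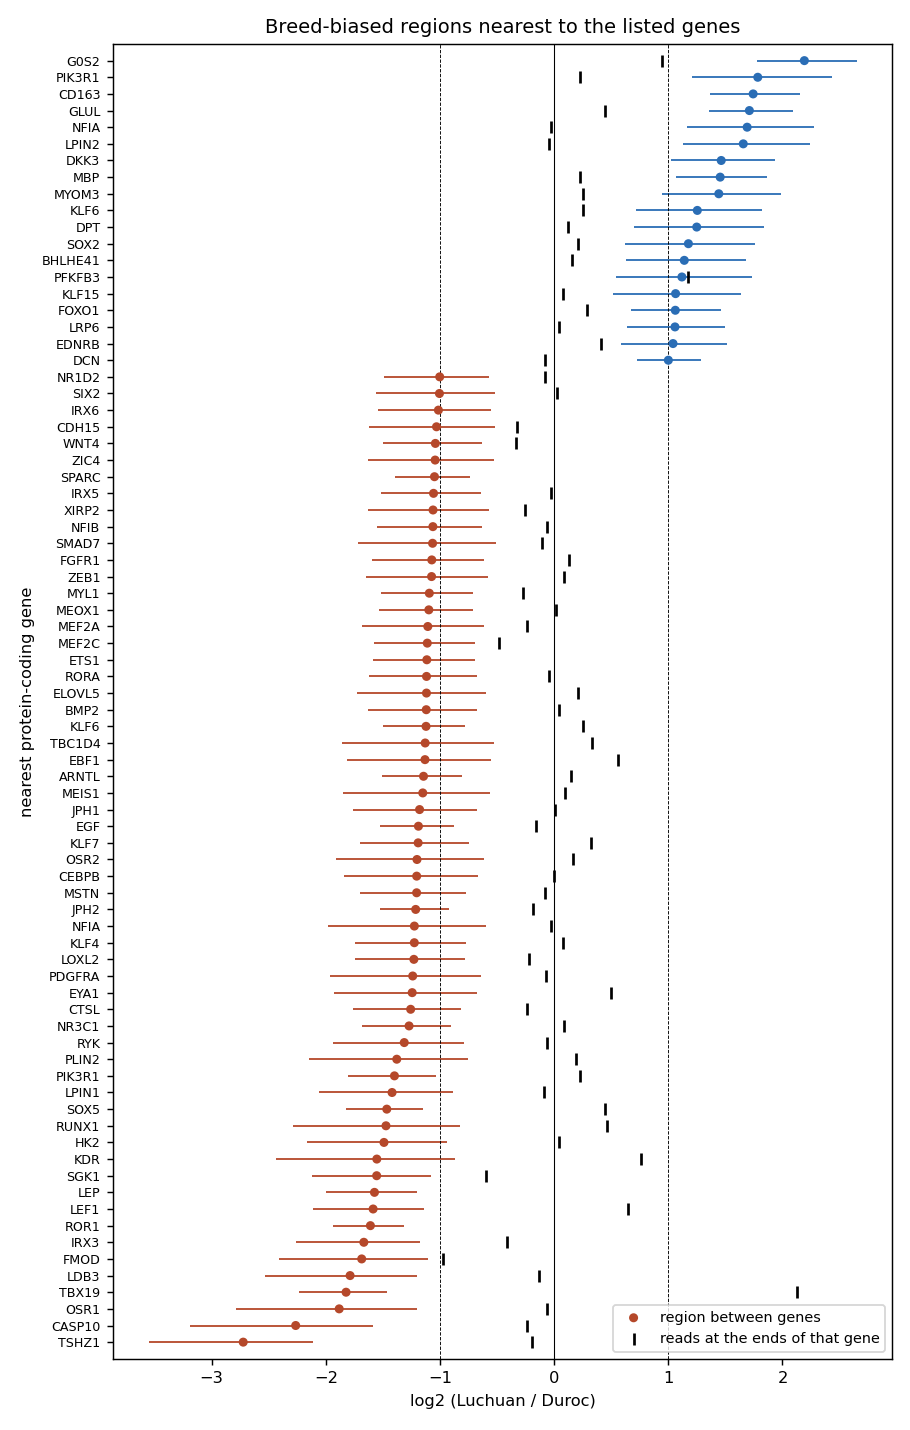
Scaled log2 ratio of Luchuan to Duroc reads (horizontal axis) of the breed-biased region with most reads for each listed gene and direction, with 95% counting intervals. Red points are 59 regions higher in Duroc, blue points 19 higher in Luchuan, and black ticks the reads at the ends of the same gene. Of 70 ticks, 62 lie within 0.5 of 0. Farther out on the side of their region are PFKFB3 (1.17), close to its region, and G0S2 (0.94), FMOD (-0.97) and SGK1 (-0.60), nearer to 0. Farther out on the opposite side are TBX19 (2.13), KDR (0.76), LEF1 (0.65) and EBF1 (0.56).

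Genes of the matrix and of other cell types were also few. Of 69 regions near extracellular matrix genes, 4 were higher in Duroc and 1, near DCN, in Luchuan. FMOD, the gene of the collagen-binding proteoglycan fibromodulin, had a region with 25 Luchuan and 125 Duroc reads 5.97 kb away (-1.69). Its gene ends had 199 and 590 reads (-0.97, -1.22 to -0.74), so that both leaned to Duroc. SPARC, a collagen-binding matrix protein gene, had 103 and 323 (-1.05) in the larger of its pair of regions, and LOXL2, a collagen crosslinking enzyme gene, had 48 and 172 (-1.23).

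Markers of fibroblasts and fibro-adipogenic cells had 2 of 42 regions in each direction. PDGFRA (26 Luchuan and 95 Duroc reads, -1.24) and OSR1 (17 and 99, -1.88) were higher in Duroc, and DPT (70 and 44, 1.25) and DCN in Luchuan. Of 34 regions near endothelial and smooth muscle genes, 1 was higher in Duroc, near KDR, a receptor gene of vascular growth factor (18 and 83, -1.55). The ends of KDR leaned the other way, with 70 and 62 reads (0.76, 0.25 to 1.28). Of 35 near satellite cell genes, 1 was higher in Duroc, near the muscle cadherin gene CDH15 (38 and 119, -1.03). CD163 had the 1 Luchuan-higher region of 15 near immune genes, and MBP, a myelin protein gene, had both Luchuan-higher regions of 23 near Schwann cell genes (150 and 82 reads, 1.45, for the larger).

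Genes known from studies of pig breeds and traits had 9 of 73 regions higher in Duroc (12.3%), of which 5 were those of LEP, and 1 in Luchuan, near EDNRB, an endothelin receptor gene tied to coat colour (96 and 70 reads, 1.04). TBX19, a T-box factor known from the pituitary, had 69 Luchuan and 372 Duroc reads 5.91 kb away (-1.82, -2.23 to -1.47). The ends of TBX19 had few reads and the opposite lean, 31 against 10 (2.13, 1.16 to 3.42). CASP10, a caspase gene, had 16 and 122 (-2.26), and the other 2 Duroc-higher regions were those of BMP2 and SOX5. In the plot of listed genes, gene ends stand closer to 0 than the region for all genes with gene-end reads but 2, PFKFB3 and TBX19. The regions plotted were chosen for a large ratio and the gene ends were not, so this order follows largely from the choice.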

How the data were processed

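ATAC-seq of longissimus dorsi muscle was available for 3 Duroc and 3 Luchuan boars. Transcript data of these boars were not used here. The authors cleaned reads by Trimmomatic 0.36, mapped them to Sscrofa11.1 by Bowtie2 and called peaks by MACS2. The authors deposited whole-number read counts, 1 column per breed, with no scaling for depth. How the 3 boars were combined, the removal of duplicates and the transposase shift are not given in the sources used here. The table also holds the authors' rescaled log2 fold change, average signal and P value, and none of these was used.

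Peak starts were read as counted from 0, since the shortest peak then has 150 bases, and are printed counted from 1. Reads were scaled by 1.51 with a pseudocount of 1. Gene bodies came from RefSeq, which for Sscrofa11.1 lists 18722 protein-coding genes on these chromosomes. That table has no strand or exons, so sides are given as lower or higher coordinates and each region is placed only as lying outside gene bodies. Exact Clopper-Pearson intervals at 95% of the Luchuan share of reads were moved to the log2 scale. With 1 count per breed no test and no standard deviation could be given.

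The regions and gene lists were chosen with earlier results of these data known. Regions named were, for each direction, the 6 of largest ratio, the 6 with most reads, those of up to 6 genes with 3 or more regions, the region with most reads for up to 3 genes per list, the 2 on each side of the 2-fold limit and up to 5 windows of 100 kb. Other regions of listed genes and of the groups at EGF, ROR1, IRX3 and GLUL, the gene ends past 2-fold, the opposite pairs, CD163L1's second region and the genes of the closing section were chosen after their values had been seen. Alternatives changed the scale, the peak kept, the read limit, the fold, the pseudocount, the lower count, the distance and the gene set. The script was tested on simulated data. A few genes are not reported here. Motifs were not searched, and no sequence is printed, because no genome sequence was used here. Tables were handled with pandas 2.3.3 and NumPy 2.4.6, intervals came from SciPy 1.17.1 and figures from Matplotlib 3.10.9, under Python 3.11.15.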

Additional observations from a re-analysis of the deposited data

How the results depend on the processing

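Of 60 values recomputed under 10 alternatives for the counts of regions, the leans of neighbours and the leans of gene ends, 49 stayed within 1.5 times the count or within the counting interval, and none reversed. With 200 or more reads, 428 Duroc-higher and 128 Luchuan-higher regions passed, neighbours leaned to Duroc in 77.1% and to Luchuan in 81.9%, and gene ends leaned to Luchuan in 86.0%. With 50 or more reads, 1529 and 903 regions passed, the lean of neighbours to Duroc was 68.2%, and the Duroc share of the regions fell to 62.9%. With a log2 ratio of 1.5 or more, 313 and 140 regions passed, and the lean of neighbours to Duroc was 77.0%. A scale set from the median ratio shifted every ratio by 0.02 and gave 938 and 374 regions. All 278 recomputed ratios of the 139 named regions stayed within their counting intervals. A shift of 0.02 is small beside these intervals, so the change of scale could hardly move a ratio out of them. No paired analysis was possible because the deposited counts hold 1 column per breed and carry no replicate numbers, and leaving out a boar was not possible for the same reason. Depth limits regions with fewer than 100 reads most.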

Other observations

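Other groups of regions lay near genes outside the lists and were picked out after their values had been seen. CAVIN4, which encodes a caveolar protein of muscle, had 3 Duroc-higher regions with 32, 124 and 30 Luchuan and 123, 468 and 114 Duroc reads (-1.32, -1.32 and -1.30), the first of them 4.35 kb from the gene. The ends of CAVIN4 had a ratio of 0.08. MYCN, a MYC family transcription factor gene, had 3 with ratios of -2.56, -1.24 and -2.07, and KCNS3, a potassium channel subunit gene, had 4, the strongest with 16 and 203 reads (-2.99). Far from NPVF, a neuropeptide gene, 4 regions at 177 to 244 kb held 290 Luchuan and 1794 Duroc reads in all (-2.66 to -1.41). Regions with enough reads nearest to the gene, whatever their ratio, numbered 13 at CAVIN4, 4 at MYCN, 9 at KCNS3 and 5 at NPVF.

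IER2, an immediate-early gene, had 3 Duroc-higher regions 3.96 to 12.3 kb away (-2.15, -1.13 and -1.60) and a gene-end ratio of -0.19. JUN, a subunit gene of the AP-1 factor, had 2 Luchuan-higher regions, with 122 and 85 Luchuan and 82 and 40 Duroc reads (1.16 and 1.66), and a gene-end ratio of -0.07. SLC38A2, an amino acid transporter gene, had 3 Luchuan-higher regions (1.63, 1.49 and 1.66) and a gene-end ratio of 0.17. GADD45G, a stress-response gene, had 3 Luchuan-higher regions, the largest with 459 and 265 reads (1.38), and RGS16, a regulator of G-protein signalling, had 3 within 0.972 kb (1.30, 1.08 and 1.30). Here the regions with enough reads nearest to the gene numbered 4 at IER2, 19 at SLC38A2, 16 at GADD45G and 5 at RGS16.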
